A study of Homo sapiens with 8 samples.

Results

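A set of 7 short noncoding RNAs made by RNA polymerase III were followed by symbol in the RNA-seq gene counts: the RNase P RNA RPPH1, the RNase MRP RNA RMRP, the signal recognition particle RNAs RN7SL1 and RN7SL2, and the vault RNAs VTRNA1-1, VTRNA1-2 and VTRNA1-3. All 7 were present among the 57996 genes counted. They were chosen by name and not by their values here, though earlier results of these data were known. HAP1 is a near-haploid adherent human line derived from a chronic myelogenous leukaemia line. Wild-type HAP1 cells were compared with a BCDIN3D knockout, a single line named clone 11, so the lost gene and the history of that clone cannot be told apart. The design text and the sample titles mark these cells as a knockout, while the name of 1 sample label speaks of shRNA. Wild-type and knockout cells grew for 48 h in IMDM with 10% FBS and PSQ, and RNA with an integrity number of 10 went into stranded total RNA libraries, 2 per group. Replicate 1 of both groups is dated 6 May and replicate 2 is dated 9 May. The design text calls the replicates biological, but the labels do not name separate cultures, so the p-values reflect how far these libraries scatter, some of which may be technical. In such bulk RNA, fewer cells with an RNA and less of it per cell cannot be told apart.

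RNA polymerase III transcribes short, untranslated RNAs that mostly act inside protein complexes. RPPH1 is the catalytic RNA of RNase P, which trims the 5′ leader from precursor tRNAs, and RMRP is the RNA of the related RNase MRP, which cuts precursor ribosomal RNA. RN7SL1 and RN7SL2 encode the 7SL scaffold of the signal recognition particle, which brings ribosomes that make secreted or membrane proteins to the endoplasmic reticulum. Vault RNAs bind the vault, a large cytoplasmic particle with a shell of major vault protein. BCDIN3D is a methyltransferase that acts on RNA 5′ monophosphates, with histidine tRNA as its best known substrate.

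Counts totalled 20728819 and 24415272 in the wild-type libraries and 21416336 and 20065041 in the knockout libraries, so 1 count was worth between 0.0405 and 0.0503 CPM, the count scaled to library size. BCDIN3D had 154 and 121 counts in the wild-type libraries, against 33 and 54 in the knockout libraries, a log2 fold change of -1.52 ± 0.24 (SE, n = 2 per group, edgeR adjusted p = 2.06e-05). Of 10 blood lineage markers, 8 had at most 5 counts in every library, HBG1 among them with 0, and BCR and ABL1, the fusion partners of the parental leukaemia, were counted in every library. In edgeR's quasi-likelihood test with Benjamini-Hochberg adjustment, 6.56% of the 16233 genes tested passed an adjusted p of 0.05, with 3.06% higher and 3.50% lower in knockout. The other 2 blood markers passed, KIT with a log2 fold change of -3.30 and TAL1 with 0.32. So did 3 of 6 markers of adherent cells, CD44 at -3.65, VIM at 0.28 and SPARC at 0.32. Without wild-type replicate 1 TAL1 missed the threshold (adjusted p = 0.237, and 0.0624 with DESeq2), as did VIM (0.0876) and SPARC (0.243) without wild-type replicate 2. The part of these shifts in the values of the short RNAs was not tested.

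The 7 RNAs fell into a set that was almost uncounted and a set that was counted at a low level. RPPH1, RMRP, RN7SL1 and RN7SL2 had 15 counts between them in all 4 libraries, and the 3 vault RNAs had 428. Only the vault RNAs passed the filter on low counts and were tested. VTRNA1-2 and VTRNA1-3 stood at 1.58 and 1.96 times their wild-type level in knockout. For both, the groups did not overlap, as for 45.3% of all genes tested in one direction or the other. VTRNA1-1 had means of 0.640 CPM in wild-type and 0.668 CPM in knockout. None of the 3 passed the test after adjustment over all genes with edgeR, and none did with DESeq2. Of these, 2 had an unadjusted edgeR p under 0.05, as did 16.7% of all genes tested.

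**Figure D1:**
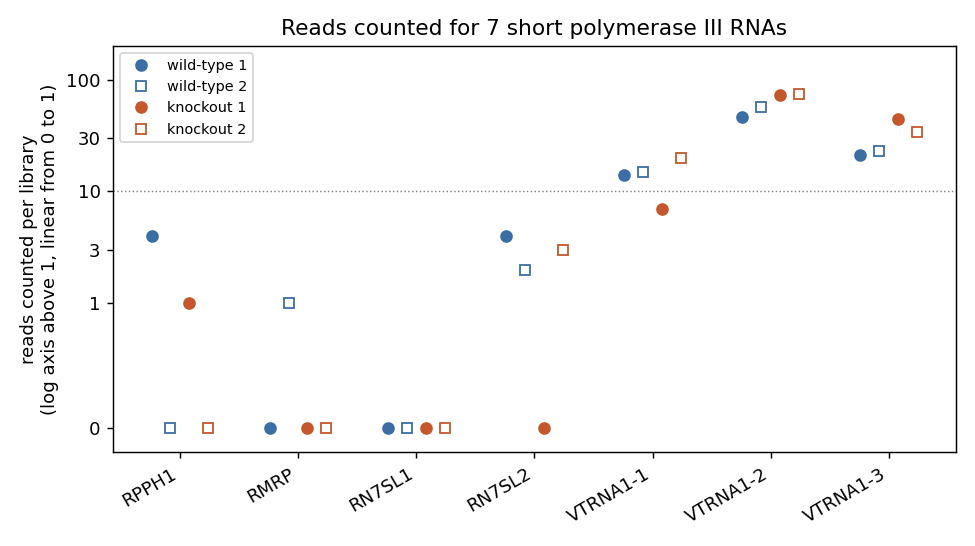
Reads counted for each of the 7 RNAs (horizontal axis) in each library, on an axis that is logarithmic above 1 and linear from 0 to 1. Circles are replicate 1, squares are replicate 2, blue is wild-type and red is knockout, and the dotted line marks the edgeR minimum count of 10. RPPH1, RMRP, RN7SL1 and RN7SL2 lie at 4 counts or below in every library, whereas VTRNA1-2 lies between 46 and 74.

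The RNA of RNase P was at the edge of detection. RPPH1 (chromosome 14, 20343071 to 20343411, 341 bases, GRCh38.p14) had 4 and 0 counts in the wild-type libraries, against 1 and 0 in the knockout libraries. Both second replicates were at 0 and the groups overlapped. The 4 wild-type counts against 1 knockout count gave a ratio of knockout to wild-type of 0.277. Its exact 95% interval, from 0.00563 to 2.80, covers counting error only and leaves the direction of any change undecided. A separate entry of the files named RNaseP_nuc, next to RPPH1 in their order, had 0 counts in every library, as did the pseudogenes RPPH1-2P and RPPH1-3P.

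The RNA of RNase MRP was lower still. RMRP (chromosome 9, 35657750 to 35658019, 270 bases) had 0 and 1 counts in the wild-type libraries, against 0 and 0 in the knockout libraries. Both groups lay under the floor of 3 counts, which corresponds to 0.121 to 0.151 CPM over the 4 libraries, so no fold was computed. The separate entry RNase_MRP had 0 counts in all 4 libraries, and the pseudogene RMRPP5 had 1 count, in wild-type replicate 2. Of 18 polymerase III subunit genes, 17 passed the filter on low counts. The exception was POLR2F, a subunit shared by all 3 nuclear RNA polymerases. It had 2 and 6 counts in the wild-type libraries, against 2 and 2 in the knockout libraries. The cause of these low counts was not tested.

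The DNA beside 3 of the RNAs is shown because control elements of such genes are known to lie beside the start or just inside it. The sequences are RefSeq windows of 300 bases, from 250 bases before to 50 after the start of the neighbouring gene on the strand of that gene, and none of the 7 RNAs had a window of its own. The window of PARP2, chr14:20343385-20343684, has its first 27 bases inside RPPH1. In it the capitals mark those 27 bases and an octamer, whose letters ATTTGCAT stand on the opposite strand 89 bases from RPPH1. The search took exact letters only, so near matches to TATAAA, such as tataag in this window, were left unmarked. The window of CCDC107, chr9:35658042-35658341, begins 22 bases from RMRP. There the capitals mark a TATA box, whose letters TATAAA stand on the opposite strand 25 bases from RMRP, and an octamer on the opposite strand 207 bases from it. The window of the long noncoding gene LOC105378198, chr5:140711026-140711325, has in capitals its last 50 bases, which are the first 50 of VTRNA1-1.
RPPH1 beside PARP2: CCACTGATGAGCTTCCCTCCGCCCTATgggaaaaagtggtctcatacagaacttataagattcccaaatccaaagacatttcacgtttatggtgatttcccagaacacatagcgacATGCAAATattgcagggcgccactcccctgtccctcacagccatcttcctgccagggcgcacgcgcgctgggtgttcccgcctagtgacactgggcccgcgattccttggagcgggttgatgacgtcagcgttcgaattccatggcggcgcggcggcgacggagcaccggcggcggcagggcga
RMRP beside CCDC107: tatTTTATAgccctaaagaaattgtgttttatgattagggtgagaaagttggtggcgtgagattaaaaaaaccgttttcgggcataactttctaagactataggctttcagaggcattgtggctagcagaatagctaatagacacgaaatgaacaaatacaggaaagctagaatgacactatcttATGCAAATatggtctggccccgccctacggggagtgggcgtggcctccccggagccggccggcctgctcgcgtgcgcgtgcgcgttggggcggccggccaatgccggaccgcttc
VTRNA1-1 at LOC105378198: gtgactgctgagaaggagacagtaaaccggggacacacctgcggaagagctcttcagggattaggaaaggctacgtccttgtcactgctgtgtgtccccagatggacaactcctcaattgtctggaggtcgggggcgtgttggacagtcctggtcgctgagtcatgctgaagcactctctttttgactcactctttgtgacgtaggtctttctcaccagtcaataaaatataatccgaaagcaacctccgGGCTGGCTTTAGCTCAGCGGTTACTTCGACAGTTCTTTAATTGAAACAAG

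RPPH1 and RMRP belong to the polymerase III genes whose control elements lie outside the transcribed part, while vault RNAs carry box A and box B elements inside it. Among 35116 RefSeq windows of the same length, searched on both strands, 1.77% held ATTTGCAT and 11.5% held TATAAA. The first 50 bases of VTRNA1-1 held GCTCAGCGG, a match to the box A core GCNNAGNGG that 29.1% of the windows also held. These are matches of letters, and binding was not measured. The promoter of RPPH1 is shared with PARP2, a poly(ADP-ribose) polymerase transcribed in the other direction. PARP2, which starts 224 bases from RPPH1, had 1284 and 1403 counts in the wild-type libraries, against 1087 and 962 in the knockout libraries. It had a log2 fold change of -0.25 ± 0.08 (SE, n = 2 per group) with an edgeR adjusted p of 0.0542. That adjusted p was 0.0134 with the replicate date as a block, 0.0474 with DESeq2 size factors, 0.0286 with scaling by library size alone, 0.0322 without knockout replicate 1 and 0.311 without knockout replicate 2. CCDC107, which starts 273 bases from RMRP, had 35 and 33 counts in the wild-type libraries, against 40 and 33 in the knockout libraries, a log2 fold change of 0.24 ± 0.31 (SE, edgeR adjusted p = 0.790). On the other sides, CCNB1IP1 near RPPH1 had a log2 fold change of 0.00, and SIT1 near RMRP had 1 count in each wild-type library and 0 in knockout.

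The named signal recognition particle RNA genes were nearly empty, while a pseudogene of theirs was among the well counted genes. RN7SL1 (chromosome 14, 49586580 to 49586878, 299 bases) had 0 counts in all 4 libraries, which allows up to 0.144 and 0.121 CPM in wild-type cells and up to 0.142 and 0.151 CPM in knockout cells. RN7SL2 (chromosome 14, 49862551 to 49862849, 299 bases) had 4 and 2 counts in the wild-type libraries, against 0 and 3 in the knockout libraries. Its groups overlapped, and 6 against 3 counts gave a ratio of knockout to wild-type of 0.554 with an exact 95% interval from 0.0897 to 2.60. RN7SL3, the other RefSeq gene of the family that is not called a pseudogene, had 0 counts in every library.

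Most reads counted for this RNA family stood under another entry. The files held 603 entries of the family, 602 with an RN7SL symbol and the entry Metazoa_SRP, of which 295 had a count in some library and 308 had none. RN7SL4P, a RefSeq pseudogene on chromosome 3 from 15738515 to 15738786 inside ANKRD28, had 110303 and 128435 counts in the wild-type libraries, against 114106 and 120177 in the knockout libraries. It held between 94.7% and 96.4% of the counts of the family in each library. Metazoa_SRP had 2968 and 3662 counts in the wild-type libraries, against 3136 and 5282 in the knockout libraries. The sequences of these entries were not compared here, and as copies of 1 RNA they may share reads, so the split of reads among them is uncertain. Whether the RN7SL4P reads came from RN7SL1 or RN7SL2 was not tested.

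**Figure D2:**
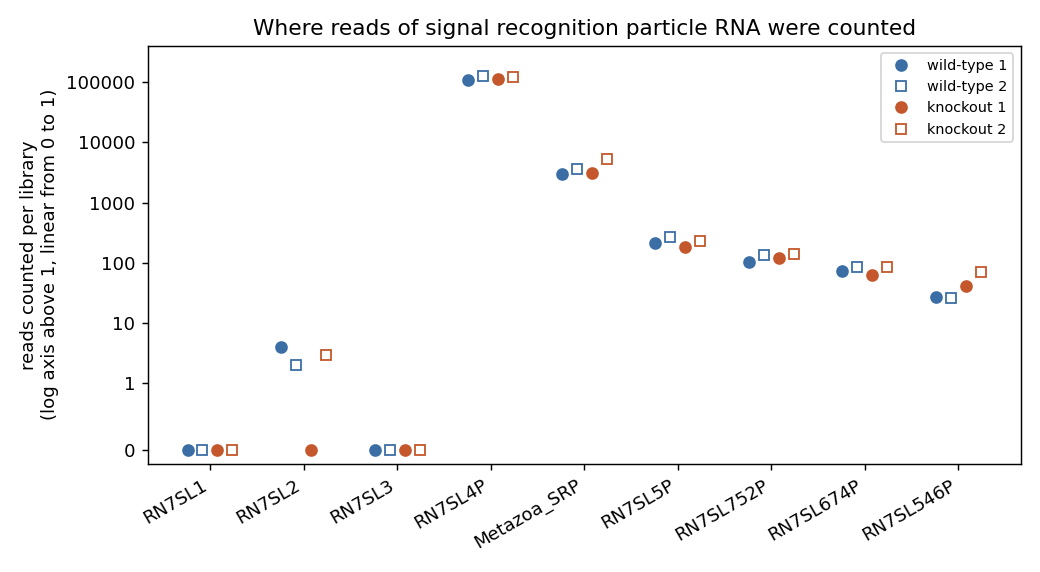
Reads counted per library (axis logarithmic above 1, linear from 0 to 1) for RN7SL1, RN7SL2, RN7SL3 and some better counted entries of the same family. Shown are RN7SL4P, Metazoa_SRP, RN7SL5P, RN7SL752P, RN7SL674P and RN7SL546P. RN7SL396P and RN7SL128P, at ranks 5 and 7 by count, are left out, and RN7SL546P is at rank 8. RN7SL4P lies at 110303 counts or more in all 4 libraries, while RN7SL1 and RN7SL3 lie at 0.

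No difference between the groups passed for the best counted entry or for the family as a sum. The level of RN7SL4P was 5302 and 5201 CPM in wild-type and 5397 and 6042 CPM in the knockout libraries, with knockout replicate 2 apart from the other libraries. The log2 fold change was 0.12 ± 0.05 (SE, n = 2 per group) with an edgeR adjusted p of 0.187. Without knockout replicate 1 the value was 0.20 with an adjusted p of 0.000961, which rests on a lone knockout library taken to vary like the others, and without knockout replicate 2 it was 0.04 (adjusted p = 0.873). All 603 entries summed to 114410 and 133503 counts in the wild-type libraries, against 118420 and 126839 in the knockout libraries, a log2 fold change of 0.14 ± 0.05 (SE, edgeR adjusted p = 0.145).

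Of the 603 entries 21 were tested, with a median log2 fold change of 0.29 beside 0.00168 over all genes tested. These entries may share reads, and an entry near the filter on low counts could pass through the group where it was high. The median is therefore no measure of the family, whose sum had 0.14. In edgeR 1 of the 21 passed as higher and 0 as lower, beside 3.06% of all genes higher and 3.50% lower. That entry, RN7SL546P, had 27 and 26 counts in the wild-type libraries, against 42 and 70 in the knockout libraries. It rose by a log2 fold change of 1.23 ± 0.31 (SE, edgeR adjusted p = 0.00678), with adjusted p = 0.299 in DESeq2, 0.0870 without wild-type replicate 2 and 0.458 without knockout replicate 2. Metazoa_SRP had 143 and 148 CPM in wild-type cells, and 148 and 266 CPM in knockout cells, a log2 fold change of 0.51 ± 0.40 (SE, edgeR adjusted p = 0.713). It passed without knockout replicate 1, at 0.87 with an adjusted p of 1.73e-34 that rests on 1 knockout library, and stood at 0.03 without knockout replicate 2 (adjusted p = 0.949). Without the robust option the adjusted p was 0.00866.

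The genes around the 7SL RNA genes were read beside them because RN7SL1 lies within the RefSeq span of RPS29, a ribosomal protein gene. RPS29 had 6350 and 8151 counts in the wild-type libraries, against 7182 and 6783 in the knockout libraries, a log2 fold change of 0.10 ± 0.06 (SE, edgeR adjusted p = 0.418). LRR1, 12062 bases from RN7SL1, had 873 and 1007 counts in the wild-type libraries, against 713 and 671 in the knockout libraries. It fell, with a log2 fold change of -0.29 ± 0.09 (SE, edgeR adjusted p = 0.0300), and missed the threshold with DESeq2 at 0.228 and whenever 1 library was left out, at 0.0653 to 0.256. ARF6, a small GTPase gene 30233 bases from RN7SL2, had a log2 fold change of 0.04.

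The vault RNAs lie in a cluster on chromosome 5, in the order VTRNA1-1, VTRNA1-2 and VTRNA1-3, with 7553 and 7146 bases between neighbours and all within the span of LOC105378198. VTRNA1-2 (140718926 to 140719013, 88 bases) was the most counted of the 7 RNAs, with 46 and 57 counts in the wild-type libraries, against 73 and 74 in the knockout libraries. These are 2.21 and 2.31 CPM in wild-type, a mean of 2.26 ± 0.0689 (SD, n = 2), and 3.45 and 3.72 CPM in knockout, a mean of 3.59 ± 0.190 (SD, n = 2). Both knockout libraries were above both wild-type libraries. The log2 fold change was 0.66 ± 0.24 (SE, 95% interval 0.17 to 1.15), with an edgeR p of 0.00893 and an adjusted p of 0.104. The knockout to wild-type log2 ratio was 0.64 on 6 May and 0.69 on 9 May.

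VTRNA1-3 (140726159 to 140726246, 88 bases) had 21 and 23 counts in the wild-type libraries, against 44 and 34 in the knockout libraries. Its level was 1.01 and 0.931 CPM in wild-type, a mean of 0.970 ± 0.0551 (SD, n = 2), and 2.08 and 1.71 CPM in knockout, a mean of 1.90 ± 0.263 (SD, n = 2). The knockout libraries were again both above the wild-type libraries. The log2 fold change of 0.97 ± 0.34 (SE, 95% interval 0.28 to 1.65) had an edgeR p of 0.00669 and an adjusted p of 0.0844. Within the dates the log2 ratio was 1.04 on 6 May and 0.88 on 9 May.

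VTRNA1-1 (140711276 to 140711373, 98 bases) had 14 and 15 counts in the wild-type libraries, against 7 and 20 in the knockout libraries. The knockout libraries were the lowest and the highest of the 4, at 0.331 and 1.01 CPM, around wild-type levels of 0.673 and 0.607 CPM. The log2 fold change was 0.05 ± 0.49 (SE, 95% interval -0.94 to 1.04) with an edgeR adjusted p of 0.981. The sign differed between the dates, with log2 ratios of -1.02 on 6 May and 0.73 on 9 May. Without knockout replicate 1 the fitted value was 0.65, and without knockout replicate 2 it was -0.93.

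**Figure D3:**
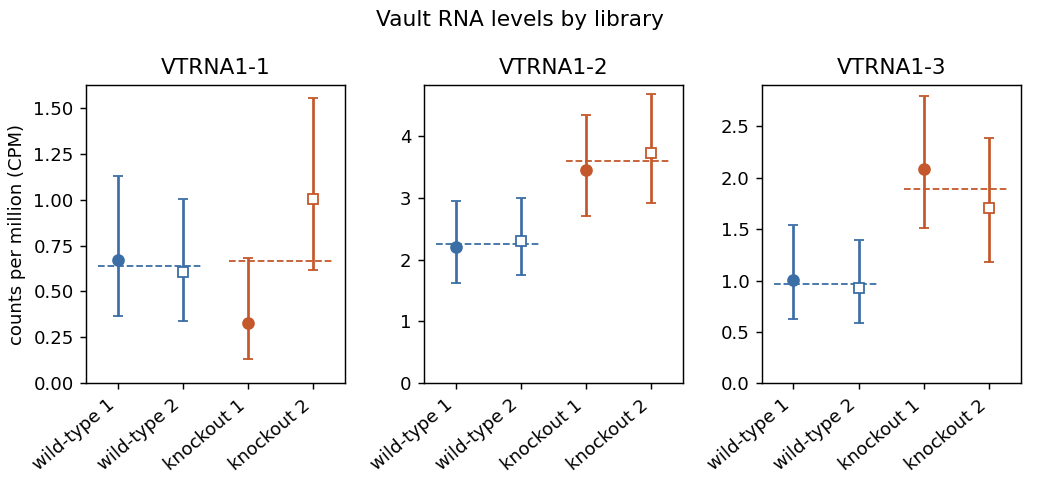
CPM of VTRNA1-1, VTRNA1-2 and VTRNA1-3 in each library on linear axes that start at 0, 1 panel per gene with its own scale. Bars are exact 95% Poisson intervals for counting error and dashed lines are group means. The knockout points of VTRNA1-2 and VTRNA1-3 lie above the wild-type points, and those of VTRNA1-1 lie on both sides of them.

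For 2 of the 3 vault RNAs the groups did not overlap, which 45.3% of all genes tested also showed in one direction or the other. From counting error alone, the ratio of knockout to wild-type was 1.58 (exact 95% interval 1.22 to 2.06) for VTRNA1-2, 1.97 (1.34 to 2.91) for VTRNA1-3 and 1.03 (0.588 to 1.81) for VTRNA1-1. These intervals leave out the spread between libraries and the adjustment over all genes. The positive sign of VTRNA1-2 and of VTRNA1-3 held under each scaling tried, and the adjusted p stayed above 0.05, at 0.0670 and 0.0644 with the replicate date as a block.

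Per kilobase of RNA, VTRNA1-2 was the highest of the 3 in wild-type, at 25.7 ± 0.783 CPM per kilobase (SD, n = 2). VTRNA1-3 followed at 11.0 ± 0.626 and VTRNA1-1 at 6.53 ± 0.472 (SD, n = 2 each). The order was the same in knockout, with 40.8 ± 2.15 for VTRNA1-2, 21.5 ± 2.99 for VTRNA1-3 and 6.82 ± 4.87 CPM per kilobase for VTRNA1-1. Neighbours in this order did not overlap between libraries of the same group.

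Summed, the vault RNAs came to 3.89 and 3.85 CPM in wild-type cells, and to 5.86 and 6.44 CPM in knockout cells. VTRNA1-2 made up 58.4% ± 2.27 of their counts in wild-type cells and 58.3% ± 0.748 in knockout cells (SD, n = 2 each). VTRNA1-3 made up 25.1% ± 1.21 in wild-type and 31.0% ± 6.31 in knockout, and VTRNA1-1 made up 16.5% ± 1.06 and 10.6% ± 7.06. The spread in knockout came with replicate 1, where VTRNA1-1 was 5.65% of the vault counts (exact 95% binomial interval 2.30 to 11.3%), against 15.6% in replicate 2.

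The rest of the vault family was hardly counted. A separate entry named Vault had 0 and 2 counts in the wild-type libraries, against 1 and 4 in the knockout libraries, and VTRNA2-1, VTRNA2-2P and VTRNA3-1P had 0 in every library. ZMAT2, a zinc finger gene 4590 bases from VTRNA1-1, had 1620 and 1742 counts in the wild-type libraries, against 1613 and 1345 in the knockout libraries, a log2 fold change of -0.04 ± 0.08 (SE, edgeR adjusted p = 0.872). The genes whose pattern over the 4 libraries was most like that of VTRNA1-2, by Euclidean distance of log2 CPM centred on the mean of each gene, were ANO4 at 0.0334, EFNB1 at 0.0620 and PNMA6A at 0.0679. ANO4 had 407 and 518 counts in the wild-type libraries, against 640 and 646 in the knockout libraries, a log2 fold change of 0.63. Its choice by likeness to VTRNA1-2 fixed a value near the 0.66 of that RNA, and no link between the genes was tested.

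Of the protein partners of these RNAs none passed in the main edgeR fit, beside 6.56% of all genes tested. The lists are short, so 0 passing at that share says little about the partners. An unadjusted edgeR p under 0.05, counted for each list below, was found for 16.7% of all genes tested. Of 12 genes for RNase P and MRP proteins 11 were tested and 0 passed, 1 having an unadjusted p under 0.05, with a median log2 fold change of 0.02. RPP25L, a paralogue of the RNA-binding subunit RPP25, had a log2 fold change of 0.20 ± 0.09 (SE, adjusted p = 0.224), and RPP25 had -0.18 ± 0.09 (SE, adjusted p = 0.361). RPP21, another protein subunit, had 4 and 7 counts in the wild-type libraries, against 15 and 3 in the knockout libraries, and was not tested.

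All 8 genes for signal recognition particle proteins and their receptor were tested, and 0 passed in edgeR, 1 having an unadjusted p under 0.05, with a median log2 fold change of -0.09. SRP54, the GTPase that binds signal peptides, had 2310 and 2535 counts in the wild-type libraries, against 2056 and 1839 in the knockout libraries. This is a log2 fold change of -0.17 ± 0.07 (SE, adjusted p = 0.162), and the adjusted p was 0.0479 with the replicate date as a block. SRP9, which binds the Alu domain of the RNA, had -0.11 ± 0.06 (SE, adjusted p = 0.377, 0.0426 without knockout replicate 1 and 0.943 without knockout replicate 2).

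Of 3 vault protein genes, 0 passed in edgeR and 0 had an unadjusted p under 0.05, with a median log2 fold change of -0.10. MVP, which forms the shell, had 84 and 137 counts in the wild-type libraries, against 79 and 80 in the knockout libraries, a log2 fold change of -0.32 ± 0.21 (SE, adjusted p = 0.500). PARP4, the vault poly(ADP-ribose) polymerase, had 0.10 ± 0.07 (SE, adjusted p = 0.548). Of 3 genes for vault RNA cofactors 0 passed in edgeR, 1 having an unadjusted p under 0.05, with a median of -0.03. SSB, the La protein that binds the 3′ ends of polymerase III transcripts, had 4640 and 5320 counts in the wild-type libraries, against 4381 and 3483 in the knockout libraries. For SSB the log2 fold change was -0.20 ± 0.07 (SE, adjusted p = 0.0656), with 0.00842 when the date was a block, 0.000155 without knockout replicate 1, 0.772 without knockout replicate 2, 0.0288 with scaling by library size alone and 0.0443 without the filter. NSUN2, the methyltransferase that makes 5-methylcytosine in vault RNAs, had -0.03.

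**Figure D4:**
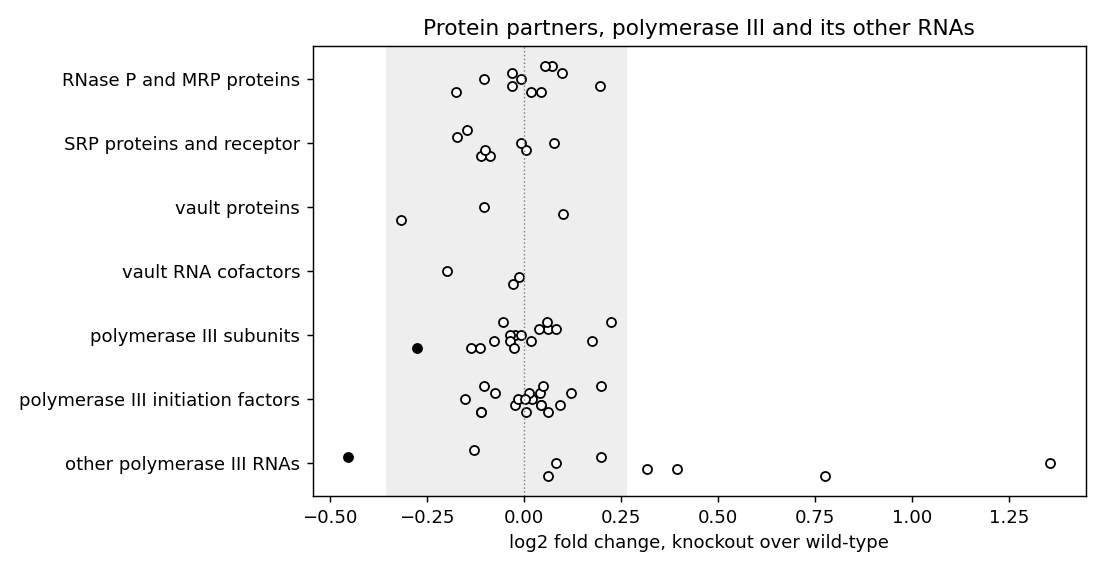
Log2 fold change, knockout over wild-type, of each tested gene in 7 lists, with filled points for genes past the edgeR adjusted p of 0.05 and a grey band from the 10th to the 90th percentile of all genes tested (-0.35 to 0.26). The only filled points are CRCP, among polymerase III subunits, and BCYRN1, among other polymerase III RNAs, both below 0.

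Among the genes of the polymerase itself 1 fell. Of 18 subunit genes 17 were tested, with a median log2 fold change of -0.02. Of the 17, 3 had an unadjusted edgeR p under 0.05, beside 16.7% of all genes tested. In edgeR 0 passed as higher and 1 as lower, beside 3.06% of all genes tested higher and 3.50% lower. CRCP, a polymerase III subunit, fell from 857 and 1037 counts in wild-type to 742 and 670 in knockout, a log2 fold change of -0.27 ± 0.09 (SE, adjusted p = 0.0483). It missed the threshold in 7 of 11 alternatives, among them DESeq2 at 0.318. With the date as a block 2 further subunits passed as higher, POLR3K at an adjusted p of 0.0294 and POLR2L at 0.0447, and POLR2L also passed without knockout replicate 1, at 0.0489, and not without knockout replicate 2, at 0.482.

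All 19 genes for polymerase III initiation factors and their regulators were tested, with a median log2 fold change of 0.01. In edgeR 0 passed, beside 6.56% of all genes tested, and 1 had an unadjusted p under 0.05, beside 16.7%. GTF3A, which binds the 5S rRNA gene, had 0.20 ± 0.07 (SE, adjusted p = 0.0575, and 0.0128 with the date as a block). MAF1, the repressor of the polymerase, had 0.12 ± 0.07 (SE, adjusted p = 0.364).

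Of 15 other polymerase III RNAs listed, 14 had an entry and 9 were tested, with a median log2 fold change of 0.20. The 9 include RNY4, a Y RNA that the filter on low counts kept through its knockout libraries alone. In edgeR 0 of the 9 passed as higher and 1 as lower, beside 3.06% of all genes tested higher and 3.50% lower. An unadjusted edgeR p under 0.05 was found for 2 of the 9, beside 16.7% of all genes tested. BCYRN1, the BC200 RNA, fell from 721 and 818 counts in wild-type to 536 and 480 in knockout, a log2 fold change of -0.45 ± 0.10 (SE, adjusted p = 0.000849). It passed in all 11 alternatives run, with adjusted p from 0.000275 to 0.0253. RN7SK, the 7SK RNA that holds the elongation factor P-TEFb inactive, had 479571 and 583534 counts in the wild-type libraries, against 517989 and 482394 in the knockout libraries, a log2 fold change of 0.06 ± 0.05 (SE, adjusted p = 0.574). MEPCE, the relative of BCDIN3D that caps 7SK, had 0.15 ± 0.08 (SE, adjusted p = 0.318, 0.0105 without knockout replicate 1 and 0.985 without knockout replicate 2).

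Among the less counted RNAs of this list, RNY1, a Y RNA bound by the Ro protein, had 441 and 501 counts in the wild-type libraries, against 437 and 618 in the knockout libraries. It had a log2 fold change of 0.32 ± 0.15 (SE, edgeR adjusted p = 0.321), with 0.58 without knockout replicate 1 (adjusted p = 7.15e-05) and -0.0033 without knockout replicate 2 (adjusted p = 0.996). RNY4, another Y RNA, had 8 and 7 counts in the wild-type libraries, against 15 and 20 in the knockout libraries, with 1.36 ± 0.51 (SE, edgeR adjusted p = 0.122). The filter on low counts kept RNY4 through its knockout libraries alone, which favoured a positive value in advance. RNY3, a further Y RNA, had 5 and 12 counts in the wild-type libraries, against 7 and 6 in the knockout libraries, and was not tested. Knockout replicate 2 was the highest library in CPM for RNY1, RNY4, RN7SL4P, Metazoa_SRP, VTRNA1-1 and VTRNA1-2, and its part in these values was not tested. Over the 7 lists of partners, factors and RNAs, 70 of 78 genes were tested and 2.86% passed, beside 6.56% of all genes tested, and with DESeq2 1 passed.

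**Figure D5:**
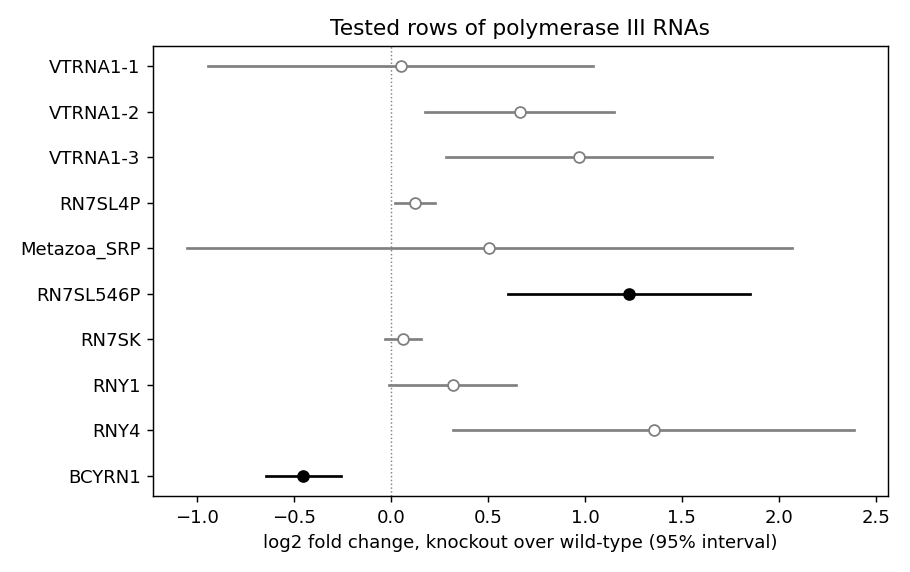
Log2 fold change, knockout over wild-type, with its 95% interval from the edgeR fit for the 3 vault RNAs, RN7SL4P, Metazoa_SRP and RN7SL546P of the 7SL family, and RN7SK, RNY1, RNY4 and BCYRN1. Filled black points passed the adjusted p of 0.05, which only RN7SL546P (1.23) and BCYRN1 (-0.45) did among those shown, and the interval of VTRNA1-1 runs from -0.94 to 1.04. RNY4 was kept by the filter on low counts through its knockout libraries alone.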

How the data were processed

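The 4 RNA-seq libraries (2 wild-type, 2 knockout) were used, and the microRNA libraries were not used here. The authors deposited raw whole-number counts of reads per gene symbol, without normalisation. STAR, featureCounts, Subread, SAMtools, FastQC and cutadapt, with the build hg38, are listed in the submitters' processing notes without roles. Versions, annotation, strand setting and the treatment of reads that fit several places are, in the sources used here, not given.

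All genes were fitted together with edgeR 4.0.16 in R 4.3.3 (filterByExpr with a minimum count of 10, TMM scaling, robust quasi-likelihood test) and adjusted by Benjamini-Hochberg over the 16233 genes kept. The fit recovered 77.7% of simulated 2-fold changes among 2 against 2 libraries. The changed genes were drawn at random from all genes tested. That share therefore does not measure recovery at the low counts of the vault RNAs. CPM uses TMM-scaled library sizes. Intervals called exact are Poisson or Clopper-Pearson at 95% and cover counting error only, since reads carried no molecular identifiers. Replicates differed beyond sampling noise (chi-square per degree of freedom 3.95 in wild-type and 4.69 in knockout).

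The replicate number marks a shared date, per the labels' titles, and so pairs the libraries. The deviations of same-numbered libraries from their group means correlated at r = 0.0825 over 16233 genes. The other fits were a replicate block, DESeq2 1.42.0, other scalings, no filter, no robust option and each library left out. Positions and sequences are RefSeq GRCh38.p14, matched by symbol for all 7 RNAs.

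The 7 RNAs and the gene lists were chosen with earlier results of these data known. Named were the 7 RNAs, BCDIN3D, MEPCE, the nearest or overlapping RefSeq genes, in each list up to 2 called genes each way or else the 2 of smallest p, the 3 other polymerase III RNAs of highest count and the 3 genes most like VTRNA1-2. Other family entries, RNY4, POLR2F, RPP21, POLR3K, POLR2L and NSUN2 were named after their values were seen.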

Additional observations from a re-analysis of the deposited data

How the results depend on the processing

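With the replicate date as a block, the log2 fold change was 0.67 for VTRNA1-2 and 0.96 for VTRNA1-3, and 1551 genes passed in place of 1065. In the lists of partners, factors and RNAs 7 genes passed with the block in place of 2, 1 without the robust option and 1 with DESeq2, and 1 to 5 when each library was left out. Over all genes 513 passed with DESeq2 and 660 to 1389 when each library was left out. The block changed no call among the 3 vault RNAs and, of the genes named, only those with a blocked value beside them. Of the 7 RNAs the alternatives tested the 3 vault RNAs alone, except that 6 were tested without the filter. None of those tested passed under any of the 11 alternatives. The ranges of the log2 fold change were -0.93 to 0.65 for VTRNA1-1, 0.61 to 0.72 for VTRNA1-2 (adjusted p from 0.0670 to 0.772) and 0.82 to 1.10 for VTRNA1-3 (0.0644 to 0.761). Of the called genes, the share that were higher went from 46.7% to 36.7% when only library size set the scaling. RN7SL1 and RN7SL2 summed did not pass the filter and gave no value. The sum over the 7SL family was chosen after seeing the data. At the 15 counts of RPPH1, RMRP, RN7SL1 and RN7SL2 the direction of any difference between the groups could not be told. The cause of those low counts was not tested.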

Other observations

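Other classes of short RNA were read from the same libraries for comparison with the vault RNAs. Small nucleolar RNAs with SNORD symbols, which guide 2′-O-methylation, took 0.0315% ± 0.000049 of the wild-type counts and 0.0301% ± 0.000487 of the knockout counts (SD, n = 2 each). SNORA RNAs, which guide pseudouridylation, took 0.0634% ± 0.00117 in wild-type and 0.0650% ± 0.00566 in knockout. With edgeR 0 of 38 SNORD and 0 of 52 SNORA genes tested passed, and of 14 SCARNA genes 1 passed as higher, beside 6.56% of all genes tested (3.06% higher). The vault RNAs took 0.000390% ± 1.17e-06 of the wild-type counts and 0.000608% ± 4.17e-05 of the knockout counts. RNY entries took 0.00234% ± 8.22e-05 in wild-type and 0.00289% ± 0.000723 in knockout. In the same order, RN7SL entries took 0.535% ± 0.00411 and 0.572% ± 0.0477, and RN7SK entries 2.35% ± 0.0541 and 2.42% ± 0.00871. SCARNA entries took 0.0839% ± 0.00282 and 0.0912% ± 0.00166, and RNU entries 0.0286% ± 0.00131 and 0.0280% ± 0.00293. The mean share was also higher in knockout for SNORA, RNY, RN7SL, RN7SK and SCARNA entries, and lower for SNORD and RNU entries. Vault, RN7SK and SCARNA shares were higher in both knockout libraries than in both wild-type libraries. Knockout replicate 1 had 0.538% for RN7SL entries, beside 0.538% and 0.532% in wild-type. Its RNY share lay between the wild-type values, and its SNORA share lay below both. Mitochondrially encoded genes took 0.184% ± 0.00246 in wild-type and 0.171% ± 0.00596 in knockout.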
